A study of Homo sapiens with 18 samples.

Results

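The mRNAs described here encode 5 subunits of the translation initiation factor eIF3, namely EIF3B, EIF3D, EIF3G, EIF3I and EIF3K. These 5 were chosen with earlier results of these data known, and other eIF3 subunits with a row of their own are described further below. Their rows were taken by symbol, as the array rows that carry 1 of these symbols and no other. Each symbol had 1 such row among the 14232 genes with a row of their own. RNA was measured on 18 Affymetrix exon arrays from U251-MG, an established human astrocytoma cell line whose source the labels also give as human brain. The 6 groups, with 3 biological replicates each, were TIAR RIP from stressed cells, TIAR RIP from unstressed cells, G3BP1 RIP from stressed cells, G3BP1 RIP from unstressed cells, input from stressed cells and input from unstressed cells. In a RIP (RNA immunoprecipitation) an antibody to an RNA-binding protein is used to recover that protein with the RNA bound to it, and input is RNA from cells with no immunoprecipitation. Stressed cells received 500 µM arsenite and unstressed cells DMSO, the vehicle, and RNA was taken after 30 min. Some labels call the TIAR antibody Tial. No RIP with a control antibody was analysed here, so RIPs were compared with each other and with input.

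eIF3 is the multi-subunit factor that binds the small ribosomal subunit, holds it ready for mRNA and helps to recruit the cap-binding complex. Within it, EIF3B is a scaffold to which EIF3G, a subunit with an RNA-recognition motif, and EIF3I, a WD40-repeat propeller, attach. EIF3D lies at the periphery and can contact the cap of selected mRNAs, and EIF3K is a small peripheral subunit that pairs with EIF3L. When arsenite halts initiation, stalled complexes that contain eIF3 gather with mRNA in stress granules. G3BP1 nucleates these granules, and TIAR is an RNA-binding protein with affinity for U-rich sequence that also enters them. The measurements below are of the mRNAs that encode the subunits, not of the eIF3 proteins.

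The annotated start of each gene is shown because many mRNAs of the translation machinery begin within an unbroken pyrimidine run, the feature of TOP mRNAs. The windows run from 80 bases before to 20 bases after the annotated start in the RefSeq promoter table on GRCh38.p14, which held 4 of the 5 genes (not EIF3G). Capitals mark the longest run of C and T on the gene's own strand that touches the 20 bases on either side of the start.
EIF3B, chr7:2354747-2354846, plus strand: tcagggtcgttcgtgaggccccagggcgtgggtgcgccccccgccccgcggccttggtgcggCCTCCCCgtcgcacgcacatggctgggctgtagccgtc
EIF3I, chr1:32222327-32222426, plus strand: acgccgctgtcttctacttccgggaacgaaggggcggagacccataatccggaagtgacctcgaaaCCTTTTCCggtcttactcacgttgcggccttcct
EIF3D, chr22:36529147-36529246, minus strand: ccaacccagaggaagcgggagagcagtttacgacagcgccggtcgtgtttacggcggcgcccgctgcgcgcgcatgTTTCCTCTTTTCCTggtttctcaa
EIF3K, chr19:38619108-38619207, plus strand: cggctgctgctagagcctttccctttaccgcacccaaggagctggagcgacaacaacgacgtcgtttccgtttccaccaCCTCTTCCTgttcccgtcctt

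The run of EIF3D was 14 bases long and covered the annotated start, from position -4 to position 10, where 1 is the first transcribed base. That of EIF3K was 9 bases long and also covered the start, from -1 to 8. In EIF3I the run had 8 bases (-14 to -7) and in EIF3B 7 bases (-18 to -12), both ahead of the start. Of 35116 promoters in the table, 30.9% held a run of at least 7 bases touching these 20 bases on either side, and in 5.9% such a run covered the start. These runs describe the letters in the windows, and annotated starts can differ from those used in these cells. The EIF3B window lies inside the gene's full span in RefSeq, which begins at 2354086.

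The deposited values are log2 RMA signals, and a value is a share of the RNA put on an array, so fewer cells carrying an mRNA and less of it per cell cannot be told apart. The highest of the 12 astrocyte and glioma markers was VIM, with group means of 12.53 to 13.22, and 8 of the 12 lay above the median of all rows in every group, while S100B and AQP4 were the lowest. Markers of other lineages were not all low: NEFL of the neuron list had group means of 13.18 to 13.49 and CD68 of the myeloid list 8.73 to 10.62. In every group 3 of the 7 neuron markers lay above that median. So did 3 of the 5 epithelial markers, namely KRT14, CLDN4 and MUC1. PTPRC of the myeloid list (3.57 to 3.77) and EPCAM of the epithelial list (3.31 to 3.51) were near the bottom of the scale. The array medians ran from 7.75 to 7.80 in TIAR RIP and, apart from 1 array, from 7.97 to 8.07 in G3BP1 RIP. The arrays that stood apart from their groups were input from stressed cells replicate 1 and G3BP1 RIP from unstressed cells replicate 3, each with a mean correlation of 0.980 with the others of its group, and results of the 5 eIF3 mRNAs whose call changed without them are given both ways.

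All 5 eIF3 mRNAs had a lower signal in TIAR RIP than in G3BP1 RIP, in stressed and in unstressed cells. In stressed cells the difference was between 2.88-fold for EIF3I and 6.8-fold for EIF3K, and in unstressed cells between 3.97-fold for EIF3I and 6.15-fold for EIF3B. For each of the 5, all 6 TIAR arrays lay below all 6 G3BP1 arrays, and the share of all rows apart in this way was not counted. This comparison asks which mRNAs the antibodies to these granule proteins recovered unequally.

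The scaffold mRNA EIF3B had log2 signals of 10.51, 10.42 and 10.31 in TIAR RIP from stressed cells, against 12.21, 12.25 and 12.14 in G3BP1 RIP from stressed cells. In unstressed cells it had 10.09, 10.05 and 10.02 in TIAR RIP and 12.79, 12.73 and 12.50 in G3BP1 RIP. The TIAR arrays did not overlap the G3BP1 arrays, and within each RIP the stressed and unstressed arrays did not overlap either. The TIAR minus G3BP1 difference in log2 signal was -1.78 ± 0.10 in stressed cells (standard error of the limma fit, n = 3 per group; adjusted p = 1.54e-09) and -2.62 ± 0.10 in unstressed cells (adjusted p = 1.49e-11).

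EIF3G, which sits on the EIF3B scaffold, had log2 signals of 10.45, 10.73 and 10.33 in TIAR RIP from stressed cells, against 12.49, 12.53 and 12.37 in G3BP1 RIP from stressed cells. In unstressed cells the values were 10.05, 9.98 and 9.95 in TIAR RIP and 12.40, 12.35 and 11.96 in G3BP1 RIP. Unstressed G3BP1 replicate 3 was the lowest of its group, and it still lay above every TIAR array. The log2 difference was -1.96 ± 0.11 in stressed cells (limma adjusted p = 2.95e-09) and -2.24 ± 0.11 in unstressed cells (adjusted p = 3.58e-10).

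EIF3I, the propeller subunit that also binds EIF3B, had log2 signals of 12.11, 12.25 and 11.98 in TIAR RIP from stressed cells and 13.69, 13.61 and 13.61 in G3BP1 RIP from stressed cells. In unstressed cells it had 11.61, 11.41 and 11.54 in TIAR RIP, against 13.60, 13.65 and 13.29 in G3BP1 RIP. The RIPs were again apart on every array, by the smallest margin of the 5 mRNAs in stressed and in unstressed cells. The log2 difference was -1.53 ± 0.10 in stressed cells (limma adjusted p = 1.06e-08) and -1.99 ± 0.10 in unstressed cells (adjusted p = 3.76e-10).

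EIF3D, the peripheral cap-contacting subunit whose gene starts within the 14-base run shown above, had log2 signals of 9.86, 9.88 and 9.79 in TIAR RIP from stressed cells, against 11.70, 11.72 and 11.58 in G3BP1 RIP from stressed cells. In unstressed cells it had 9.29, 9.29 and 9.40 in TIAR RIP and 12.06, 12.03 and 11.65 in G3BP1 RIP. The groups did not overlap between the RIPs, and unstressed G3BP1 replicate 3 again had the lowest value of its group. The log2 difference was -1.82 ± 0.09 in stressed cells (limma adjusted p = 9.79e-10) and -2.59 ± 0.09 in unstressed cells (adjusted p = 1.23e-11).

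EIF3K, the small peripheral subunit, had log2 signals of 10.32, 10.63 and 10.31 in TIAR RIP from stressed cells and 13.18, 13.23 and 13.16 in G3BP1 RIP from stressed cells. In unstressed cells it had 9.98, 10.14 and 10.01 in TIAR RIP, against 13.00, 12.94 and 12.00 in G3BP1 RIP. Unstressed G3BP1 replicate 3 lay well below the rest of its group and above all TIAR arrays. The log2 difference was -2.77 ± 0.19 in stressed cells (limma adjusted p = 1.26e-08) and -2.60 ± 0.19 in unstressed cells (adjusted p = 1.54e-08). Of the 5 mRNAs, EIF3K had the largest standard error.

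**Figure D1:**
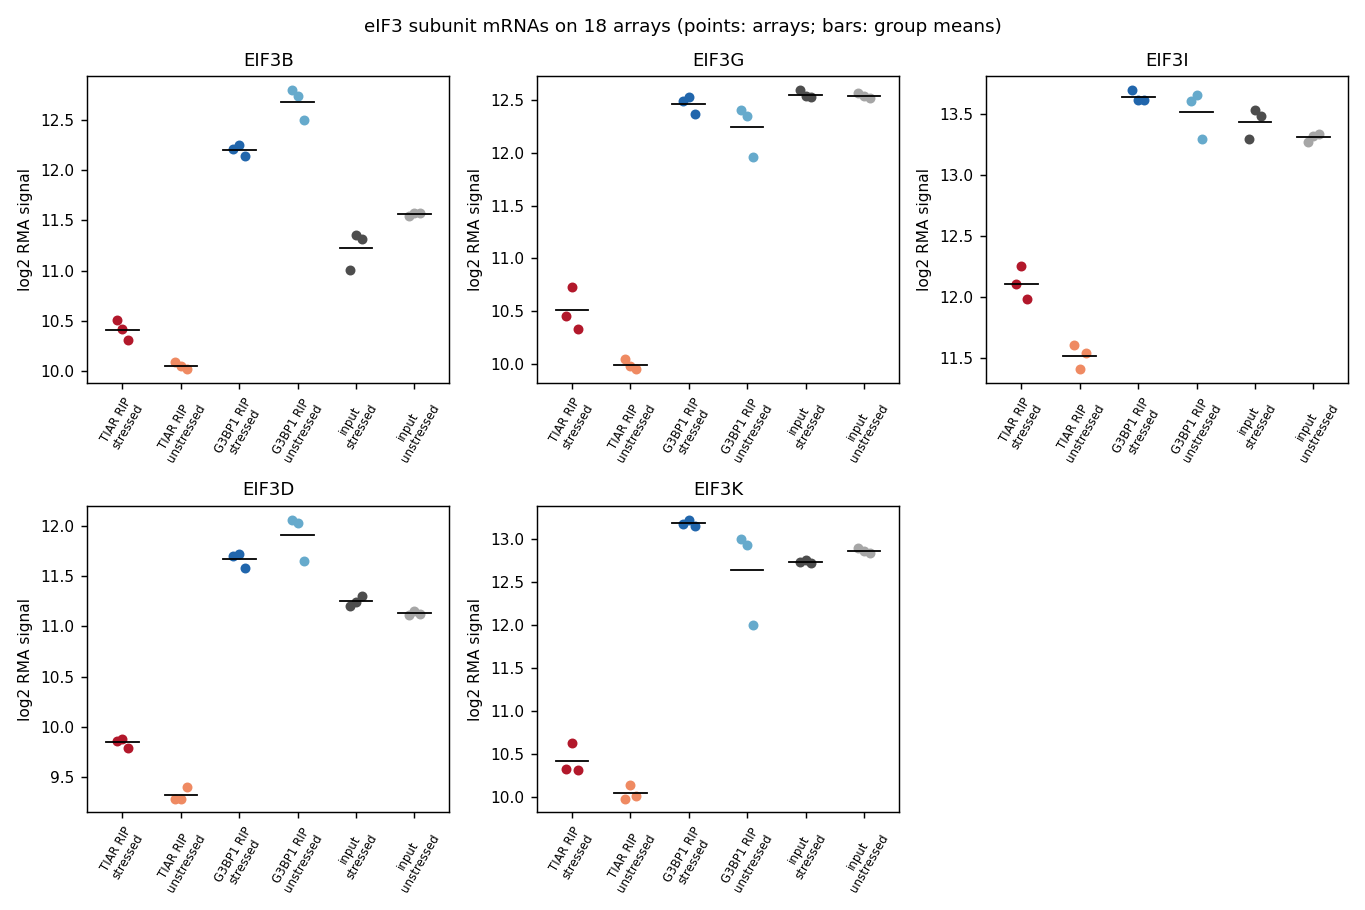
Log2 RMA signal (vertical axis, a separate scale in each panel) of the 5 eIF3 mRNAs in the 6 groups (horizontal axis), with a point for each of the 3 arrays of a group and a bar at the group mean. In every panel the TIAR RIP arrays lie below the G3BP1 RIP and input arrays, and 1 unstressed G3BP1 array is low, most visibly for EIF3K at 12.00.

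The 5 of 5 calls stand against 28.7% of all 22011 rows called lower in TIAR RIP in stressed cells, and 27.5% in unstressed cells. Because the 5 were chosen with earlier results known, this count describes them and not eIF3 mRNAs as a whole. The median log2 difference of the 5 was -1.82 in stressed cells and -2.59 in unstressed cells, against -0.054 and -0.051 over all rows. Ranked among 14232 genes in stressed cells, EIF3K had 0.155% of genes below it (22 genes), EIF3G 2.28%, EIF3D 3.25%, EIF3B 3.48% and EIF3I 5.91%. In unstressed cells the shares were 0.942% for EIF3B, 1.02% for EIF3K, 1.04% for EIF3D, 2.32% for EIF3G and 3.51% for EIF3I. The split of calls over all rows moved with the scaling of the arrays: higher calls were 35.3% of all calls in stressed cells, and 54.5%, 47.3% and 48.1% after median centring, quantile normalization and cyclic loess. In unstressed cells they were 41.3%, and 54.4% after median centring. The 5 mRNAs were called lower under all 3 scalings in both conditions, with log2 differences in stressed cells of -1.54 to -1.30 for EIF3I and -2.72 to -2.54 for EIF3K.

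**Figure D2:**
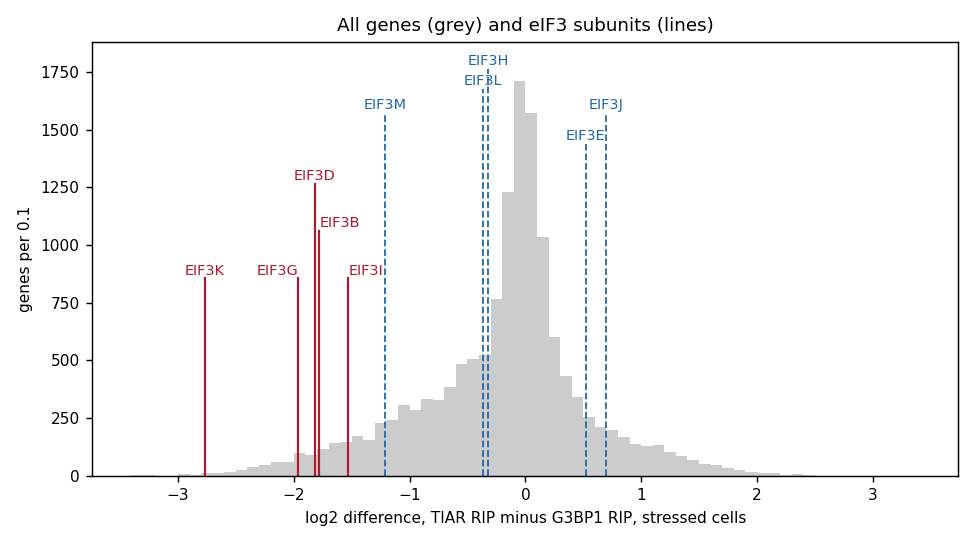
Number of genes (vertical axis, per 0.1 log2 unit) by TIAR RIP minus G3BP1 RIP log2 difference in stressed cells (horizontal axis), with solid red lines at the 5 eIF3 mRNAs described and dashed blue lines at 5 other eIF3 subunit mRNAs; the height of a line only places its label. The red lines lie between -2.77 and -1.53, and the blue lines between -1.21 and 0.70.

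Not all eIF3 mRNAs shared this difference. Of 9 further subunit symbols, 5 had a row of their own (EIF3E, EIF3H, EIF3J, EIF3L and EIF3M), and the rest were not analysed here. In each condition 3 of these 5 were called lower in TIAR RIP than in G3BP1 RIP and 1 higher, and 15.6% of all rows were called higher in stressed and 19.3% in unstressed cells. EIF3M, a PCI-domain subunit, had the largest drop, with a log2 difference of -1.21 ± 0.13 in stressed cells (limma adjusted p = 2.05e-06) and -1.78 ± 0.13 in unstressed cells (adjusted p = 2.43e-08). EIF3L, the partner of EIF3K, had -0.37 ± 0.10 in stressed cells (adjusted p = 0.00434) and -0.77 ± 0.10 in unstressed cells (adjusted p = 4.86e-06).

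EIF3J, a loosely attached subunit that helps ribosome recycling, went the other way. It had log2 signals of 10.82, 10.67 and 11.00 in TIAR RIP from stressed cells, against 10.29, 10.01 and 10.08 in G3BP1 RIP from stressed cells, without overlap, and its log2 difference was 0.70 ± 0.18 (limma adjusted p = 0.004). In unstressed cells its difference was 0.71 ± 0.18 (adjusted p = 0.00346). EIF3E, through which EIF3D is anchored, was not called in either condition, at 0.52 ± 0.21 in stressed cells (adjusted p = 0.0648) and -0.28 ± 0.21 in unstressed cells (adjusted p = 0.322). The stressed EIF3E difference depended on the processing, since it was called in 8 of 16 alternatives and ran from 0.74 to 0.87 under the 3 scalings. Under these scalings the unstressed EIF3E difference ran from -0.11 to 0.01, so its sign changed. Without both arrays that stood apart EIF3E passed in both conditions, at 0.52 ± 0.17 in stressed cells (adjusted p = 0.0187) and -0.49 ± 0.19 in unstressed cells (adjusted p = 0.0414). EIF3H, an MPN-domain subunit, had -0.32 ± 0.11 in stressed cells (adjusted p = 0.0197) and -0.49 ± 0.11 in unstressed cells (adjusted p = 0.00103). Over the scalings the stressed values of EIF3H moved to between -0.26 and -0.10 and those of EIF3L to between -0.35 and -0.15, and both lost the call under median centring, which moved the median of all rows by 0.23. The stressed EIF3H call was also lost without stressed G3BP1 replicate 1, stressed TIAR replicate 1 or stressed TIAR replicate 2 (adjusted p = 0.0749, 0.0653 and 0.0575).

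**Figure D3:**
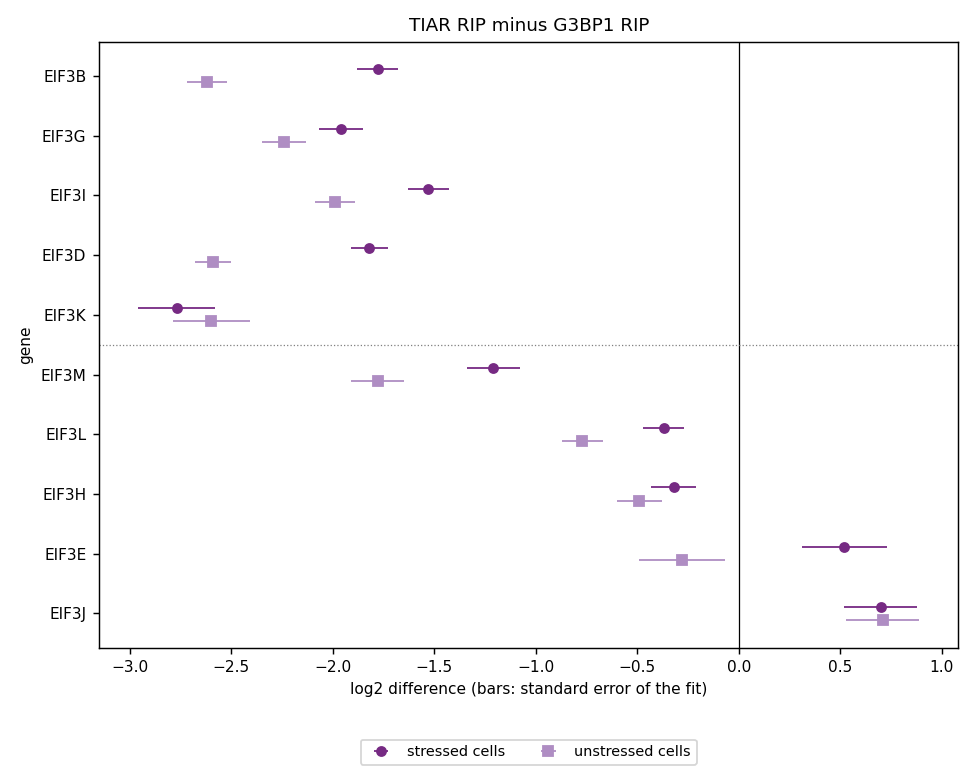
TIAR RIP minus G3BP1 RIP log2 difference (horizontal axis; bars are standard errors of the fit) for 10 eIF3 subunit mRNAs (vertical axis; the 5 described in full are above the dotted line), in stressed cells (circles) and unstressed cells (squares). EIF3B, EIF3G, EIF3I, EIF3D and EIF3K lie between -2.77 and -1.53, EIF3M follows, and EIF3J lies at 0.70 and 0.71.

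Set against input, the 5 mRNAs were low in TIAR RIP, whereas in G3BP1 RIP they lay near or moderately above input. These comparisons share arrays with the one above, so the values are set side by side and not counted as separate evidence. All 5 were called lower in TIAR RIP than in input in stressed cells, where 23.5% of all rows were called lower, and in unstressed cells, where 23.8% were. In G3BP1 RIP 2 of the 5 were called higher than input in stressed cells (29.3% of all rows were called higher) and 2 in unstressed cells (20.7%), and 1 was called lower in unstressed cells (19.2%).

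EIF3B showed both sides. Its input signals were 11.01, 11.35 and 11.31 in stressed cells and 11.54, 11.57 and 11.57 in unstressed cells, between those of the RIPs without overlap. TIAR RIP minus input was -0.81 ± 0.10 in stressed cells (limma adjusted p = 6.91e-06) and -1.51 ± 0.10 in unstressed cells (adjusted p = 1.1e-08). G3BP1 RIP minus input was 0.98 ± 0.10 in stressed cells (adjusted p = 1.09e-06) and 1.11 ± 0.10 in unstressed cells (adjusted p = 3.29e-07). Thus the TIAR against G3BP1 difference of EIF3B was made of a fall below input in TIAR RIP and a rise above it in G3BP1 RIP.

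EIF3D had the same order. Its input signals were 11.20, 11.24 and 11.30 in stressed cells and 11.11, 11.15 and 11.12 in unstressed cells, again between the RIPs. TIAR RIP minus input was -1.40 ± 0.09 in stressed cells (limma adjusted p = 3.1e-08) and -1.80 ± 0.09 in unstressed cells (adjusted p = 1.61e-09). G3BP1 RIP minus input was 0.42 ± 0.09 in stressed cells (adjusted p = 0.0018) and 0.79 ± 0.09 in unstressed cells (adjusted p = 7.08e-06). With cyclic loess scaling the stressed G3BP1 value of EIF3D was 0.17 ± 0.08 and lost its call (adjusted p = 0.0877).

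For EIF3G the input arrays were at the level of the G3BP1 arrays or above them, at 12.59, 12.54 and 12.53 in stressed cells and 12.57, 12.54 and 12.52 in unstressed cells. TIAR RIP minus input was -2.05 ± 0.11 in stressed cells (limma adjusted p = 8.95e-09) and -2.55 ± 0.11 in unstressed cells (adjusted p = 5.32e-10). G3BP1 RIP minus input was -0.09 ± 0.11 in stressed cells (adjusted p = 0.564) and -0.31 ± 0.11 in unstressed cells (adjusted p = 0.0436). The last of these is the 1 lower call in G3BP1 RIP, and without unstressed G3BP1 replicate 3 it was -0.17 ± 0.10 (adjusted p = 0.184). It also lost the call without any 1 of the 3 unstressed input arrays, at -0.29, -0.31 and -0.32 (adjusted p = 0.106, 0.0918 and 0.0794). With median centring the stressed value of EIF3G was called lower, at -0.26 (adjusted p = 0.042).

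EIF3I and EIF3K were also low in TIAR RIP and had no call between G3BP1 RIP and input. EIF3I had input signals of 13.29, 13.53 and 13.48 in stressed cells and 13.27, 13.32 and 13.33 in unstressed cells. Its TIAR RIP minus input value was -1.32 ± 0.10 in stressed cells (limma adjusted p = 1.05e-07) and -1.78 ± 0.10 in unstressed cells (adjusted p = 3.45e-09). G3BP1 RIP minus input was 0.20 ± 0.10 in stressed cells (adjusted p = 0.118) and 0.21 ± 0.10 in unstressed cells (adjusted p = 0.13), and without unstressed G3BP1 replicate 3 the second of these was 0.32 ± 0.09 and passed (adjusted p = 0.0116). For both input groups of EIF3I, every TIAR array lay below every input array.

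EIF3K had input signals of 12.74, 12.76 and 12.73 in stressed cells and 12.90, 12.87 and 12.84 in unstressed cells. TIAR RIP minus input was -2.32 ± 0.19 in stressed cells (limma adjusted p = 1.58e-07) and -2.82 ± 0.19 in unstressed cells (adjusted p = 1.53e-08), the second being the largest drop against input among the 5. G3BP1 RIP minus input was 0.44 ± 0.19 in stressed cells (adjusted p = 0.068), although the 3 G3BP1 arrays lay above the 3 input arrays, and -0.22 ± 0.19 in unstressed cells (adjusted p = 0.396). The unstressed value ran from -0.40 to 0.10 over 16 alternatives, changed sign in 3 and was called in 0. Without both arrays that stood apart the stressed value of EIF3K stayed at 0.44 and passed (adjusted p = 0.000906).

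**Figure D4:**
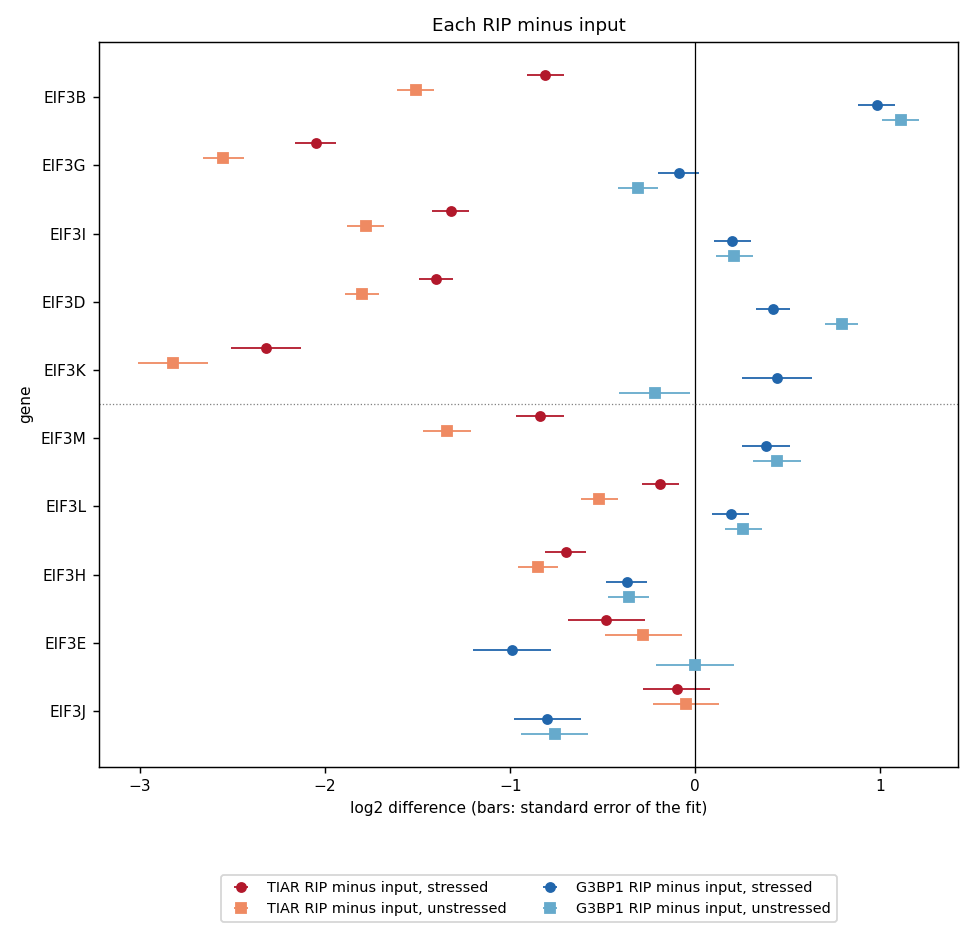
RIP minus input log2 difference (horizontal axis; bars are standard errors of the fit) for 10 eIF3 subunit mRNAs (vertical axis), for TIAR RIP (red and orange) and G3BP1 RIP (dark and light blue), with circles for stressed and squares for unstressed cells. For the upper 5 mRNAs the TIAR values lie between -2.82 and -0.81 and the G3BP1 values between -0.31 and 1.11.

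By group mean the order of the 6 groups had TIAR RIP from unstressed cells lowest and TIAR RIP from stressed cells next for each of the 5 mRNAs. The arrays of these neighbours did not overlap, which was not counted over all rows. Above them the order differed. For EIF3B all neighbours were apart, in the order input from stressed cells, input from unstressed cells, G3BP1 RIP from stressed cells and G3BP1 RIP from unstressed cells. For EIF3D the G3BP1 RIPs were highest and overlapped each other. For EIF3G and EIF3I every pair of neighbours above TIAR RIP overlapped. For EIF3K the unstressed G3BP1 arrays, spread from 12.00 to 13.00, overlapped the stressed input arrays next above them in the order.

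Arsenite raised 4 of the 5 mRNAs in TIAR RIP, by 0.36 to 0.59 log2 units, while 6.15% of all rows were called higher there. EIF3I rose most, by 0.59 ± 0.10 (limma adjusted p = 0.00122), followed by EIF3D at 0.52 ± 0.09 (adjusted p = 0.00157) and EIF3G at 0.51 ± 0.11 (adjusted p = 0.00764). EIF3B rose by 0.36 ± 0.10 (adjusted p = 0.0234), a 1.28-fold change. EIF3K had 0.38 ± 0.19 (adjusted p = 0.271), and without both arrays that stood apart, neither of them a TIAR array, it passed at 0.38 ± 0.08 (adjusted p = 0.00305). Rows called in either direction rose from 2609 to 5057 in that refit. For each of the 5 the stressed TIAR arrays did not overlap the unstressed ones. The share of all rows without such overlap was not counted, so this describes the arrays and adds nothing to the calls. The call of EIF3B was lost in 5 of the 6 refits that left out 1 TIAR array, with values of 0.31 to 0.38 and adjusted p of 0.0535 to 0.107.

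In G3BP1 RIP only EIF3B of the 5 was called lower with arsenite, at a log2 change of -0.47 ± 0.10 (limma adjusted p = 0.0037), where 4.08% of all rows were called lower. EIF3D had -0.25 ± 0.09 (adjusted p = 0.103), EIF3G 0.23 ± 0.11 (adjusted p = 0.235), EIF3I 0.13 ± 0.10 (adjusted p = 0.523) and EIF3K 0.54 ± 0.19 (adjusted p = 0.0703). With only the compared groups in the fit, the EIF3B value kept its size and lost its call (adjusted p = 0.0769). Under the 3 scalings EIF3D was called lower too, at -0.32 to -0.29 (adjusted p = 0.00663 to 0.0168). With weights for the arrays it was called at -0.36 (adjusted p = 0.000139). EIF3K, in contrast, was called higher under the 3 scalings, at 0.49 to 0.55, and with either filter on rows of low mean. Without unstressed G3BP1 replicate 3, EIF3D was called at -0.38 ± 0.07 (adjusted p = 0.00143) and EIF3K moved to 0.22 ± 0.09 (adjusted p = 0.112). Without replicate 1 or 2 of that group, EIF3K was called at 0.72 ± 0.19 (adjusted p = 0.0208) or 0.69 ± 0.20 (adjusted p = 0.0336). The change of EIF3K thus ran from 0.22 to 0.72 with the choice of these arrays.

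In input, arsenite lowered EIF3B by a log2 change of -0.34 ± 0.10 (limma adjusted p = 0.0299), and 11.2% of all rows were called lower. The other 4 had values of -0.12 to 0.13 with no call. With median centring or cyclic loess EIF3D was called higher, at 0.22 and 0.28 (adjusted p = 0.0492 and 0.0219). The EIF3B call was lost in 4 of the 6 refits that left out 1 input array. It was -0.23 ± 0.09 (adjusted p = 0.12) without stressed input replicate 1, which stood apart from its group, and it was lost at -0.35, -0.33 and -0.33 without unstressed input replicate 1, 2 and 3 (adjusted p = 0.0735, 0.0858 and 0.0882).

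**Figure D5:**
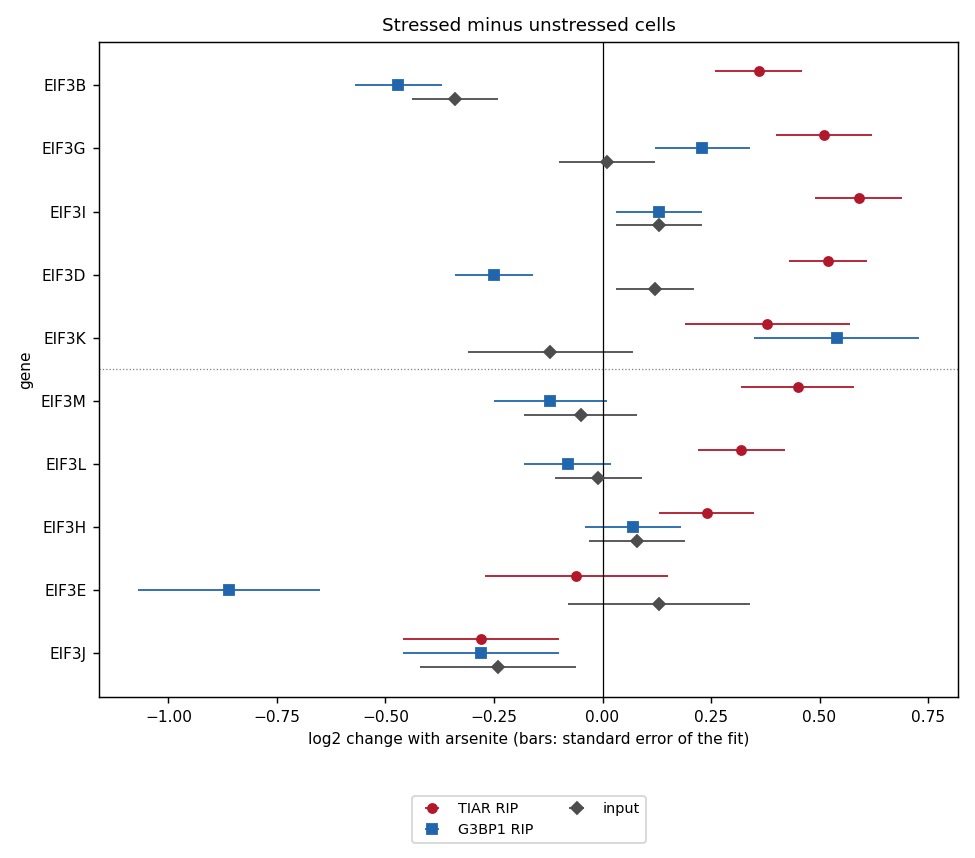
Log2 change with arsenite, stressed minus unstressed cells (horizontal axis; bars are standard errors of the fit), for 10 eIF3 subunit mRNAs (vertical axis) in TIAR RIP (circles), G3BP1 RIP (squares) and input (diamonds). In TIAR RIP the upper 5 mRNAs lie between 0.36 and 0.59, while in G3BP1 RIP they run from -0.47 for EIF3B to 0.54 for EIF3K.

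The arsenite change itself differed between the RIPs for 3 of the 5, and 5.05% of all rows were called in that direction. The TIAR change minus the G3BP1 change was 0.84 ± 0.14 for EIF3B (limma interaction, adjusted p = 0.000896), 0.77 ± 0.13 for EIF3D (adjusted p = 0.00127) and 0.46 ± 0.14 for EIF3I (adjusted p = 0.0445). EIF3G had 0.28 ± 0.16 (adjusted p = 0.327) and EIF3K -0.17 ± 0.27 (adjusted p = 0.826). For EIF3B and EIF3D the gap between the RIPs was therefore smaller in stressed than in unstressed cells. Without unstressed G3BP1 replicate 3 EIF3G also passed, at 0.42 ± 0.13 (adjusted p = 0.0351). The call of EIF3I was lost in 10 of the 12 refits that left out 1 RIP array, at 0.40 to 0.51 (adjusted p = 0.0502 to 0.116).

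Set against the change in input, the TIAR change of EIF3B was larger by 0.70 ± 0.14 (limma interaction, adjusted p = 0.0368), a direction in which 0.604% of all rows were called. This call was lost in 9 of 12 refits that left out 1 TIAR or input array, among them the one without stressed input replicate 1, at 0.59 ± 0.12 (adjusted p = 0.0616). The remaining 4 mRNAs had values of 0.40 to 0.50 and were not called. Without both arrays that stood apart EIF3D (0.38, adjusted p = 0.0296), EIF3K (0.50, adjusted p = 0.0401) and EIF3G (0.52, adjusted p = 0.0469) passed too. In that refit the rows called in either direction rose from 144 to 732 of 22011, so the gain was not confined to these mRNAs. For the G3BP1 change against the input change 0 of the 5 were called by limma, while 16.9% of all rows were called in either direction. An unadjusted p under 0.05, for which the share of all rows was not counted, was found for 2 of the 5. These were EIF3D at -0.37 ± 0.13 (adjusted p = 0.0733) and EIF3K at 0.67 ± 0.27 (adjusted p = 0.106). With all arrays kept, EIF3D was called under the 3 scalings, at -0.59 to -0.52 (adjusted p = 0.00121 to 0.00364). It was also called with weights for the arrays, at -0.50 (adjusted p = 0.000302). The values of EIF3D and EIF3K moved with single unstressed G3BP1 arrays too. Without replicate 3 EIF3D was called at -0.50 ± 0.09 (adjusted p = 0.00154), while EIF3K moved to 0.34 ± 0.12 (adjusted p = 0.0623). Without replicate 1 or 2 EIF3K was called at 0.85 ± 0.25 (adjusted p = 0.0328) or 0.81 ± 0.27 (adjusted p = 0.0488). Without both arrays that stood apart EIF3B passed as well, at -0.33 ± 0.09 (adjusted p = 0.0184). Under the 3 scalings, with all arrays kept, EIF3B passed at -0.33 to -0.29 (adjusted p = 0.0138 to 0.0498).

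Among the other subunits, EIF3M rose with arsenite in TIAR RIP by 0.45 ± 0.13 (limma adjusted p = 0.0409) and EIF3L by 0.32 ± 0.10 (adjusted p = 0.0381), and the other 3 were not called. These calls depended on the processing: that of EIF3M held in 9 of 16 alternatives (adjusted p up to 0.174) and that of EIF3L in 8 of 16 (adjusted p up to 0.17), and EIF3L lost it in each of the 6 refits that left out 1 TIAR array. EIF3E, which lay at 8.76, 8.35 and 8.54 in G3BP1 RIP from stressed cells, against 9.59, 9.65 and 9.00 in G3BP1 RIP from unstressed cells, fell there by 0.86 on the log2 scale (SE 0.21, adjusted p = 0.0131). That change differed from the one in input by -0.99 ± 0.30 (limma interaction, adjusted p = 0.036), a direction in which 2.65% of all rows were called. The fall of EIF3E in G3BP1 RIP was called in 12 of 16 alternatives (-1.07 to -0.75, adjusted p up to 0.0744) and its difference from input in 13 of 22 (-1.38 to -0.86, adjusted p up to 0.0903). Without unstressed G3BP1 replicate 3, the lowest of its group for EIF3E, the fall was -1.07 ± 0.21 (adjusted p = 0.0033) and the difference -1.20 ± 0.29 (adjusted p = 0.00983). By limma 0 of these 5 were called for the arsenite change in input, and 0 had an unadjusted p under 0.05. For the TIAR against G3BP1 difference in change 0 were called too, while EIF3E, EIF3L and EIF3M had an unadjusted p under 0.05, at 0.80, 0.40 and 0.56. The share of all rows at that unadjusted threshold was not counted. Without unstressed G3BP1 replicate 3 EIF3H (0.32, adjusted p = 0.038), EIF3L (0.50, adjusted p = 0.00748), EIF3M (0.69, adjusted p = 0.0133) and EIF3E (1.01, adjusted p = 0.0245) were called. The share of all rows called in that refit is not given here, so these calls describe the 5 only. Without both arrays that stood apart, rows called in this comparison rose from 2994 to 5447.

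Over the 18 arrays the log2 signals of the 5 mRNAs moved together, with a Pearson correlation of 0.815 to 0.986 in the 10 pairs (median 0.952). The highest was between EIF3G and EIF3K and the lowest between EIF3B and EIF3G. The arrays fall into 3 kinds of RNA, and 8765 to 10310 of 22011 rows were called between kinds within a condition. Every pair shares these kinds, and their part in the correlations was not tested. Between the 5 and the other subunits the 25 correlations ran from -0.60 (EIF3B with EIF3J) to 0.978 (EIF3D with EIF3M), and those with EIF3E were 0.008 to 0.164.

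The genes whose signals were most like the mean of the 5, among 7116 genes above the median signal, were FBL, which encodes the nucleolar methyltransferase fibrillarin (r = 0.999 over 18 arrays), DNTTIP1 (0.997), the proteasome ubiquitin receptor gene ADRM1 (0.996), the COP9 signalosome gene COPS6 (0.996) and the brain-type creatine kinase gene CKB (0.995). For single mRNAs they were the proteasome gene PSMD2 for EIF3B (0.996), the proteasome ATPase gene PSMC3 for EIF3D (0.995), the myosin light chain gene MYL6 for EIF3G (0.995), the ESCRT gene CHMP2A for EIF3I (0.995) and COMMD4 for EIF3K (0.997). Their TIAR minus G3BP1 log2 differences in stressed cells lay between -3.21 for PSMC3 and -1.62 for CHMP2A. These genes were chosen for their likeness, so their differences are a description.

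Lists of related genes were set beside the 5 mRNAs in the same comparison. Of 10 measured initiation partners of eIF3 (of 19 symbols), 3 were higher and 2 lower in TIAR RIP than in G3BP1 RIP in stressed cells, with a median log2 difference of 0.05. EIF4G1, the scaffold of the cap-binding complex, had -1.50 ± 0.12 (limma adjusted p = 4.8e-08) and EIF1, which guards start-codon choice, -0.86 ± 0.12 (adjusted p = 1.72e-05). The cap-binding protein gene EIF4E had 1.88 ± 0.36 (adjusted p = 0.000462) and EIF2S3, a subunit of the factor that delivers initiator tRNA, 0.46 ± 0.09 (adjusted p = 0.00044). In unstressed cells 1 of the 10 was higher and 5 were lower, with a median of -0.70. There EIF4G1 had -1.67, EIF1 -0.72 and EIF2S3 -0.01, and EIF4E was the 1 higher call at 1.24 ± 0.36 (adjusted p = 0.0101). The initiation partners thus lay on both sides in stressed cells and mostly on the lower side in unstressed cells.

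Of 11 measured genes of the small ribosomal subunit (of 33 symbols), 8 were lower and 0 higher, with a median of -1.11, among them RPS14 at -2.15, RPS25 at -2.03, RPS4X at -1.99 and RPS6 at -1.11. By limma 0 of these 11 were called higher, and 0 were higher at an unadjusted p under 0.05. In unstressed cells 6 of the 11 were lower and 0 higher, with a median of -0.44. Ribosomal protein genes have many near-identical pseudogenes, so their array signals are uncertain. Of 15 measured genes of the proteasome lid and the COP9 signalosome (of 19 symbols), complexes built like eIF3 on PCI and MPN domains, 8 were lower and 3 higher, with a median of -0.75, among them GPS1 at -2.20, COPS6 at -1.98, PSMD6 at -1.90 and PSMD3 at -1.73. In unstressed cells 8 of the 15 were lower and 2 higher, with a median of -0.80. Of 2 measured elongation factor genes (of 6 symbols), EEF1D was lower at -0.95 and EIF5A was not called at -0.07. Over all rows 28.7% were called lower and 15.6% higher in stressed cells, and 27.5% and 19.3% in unstressed cells.

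The genes of the 5 mRNAs span 4.89 kb (EIF3G), 13.8 kb (EIF3I), 17.8 kb (EIF3K), 18.3 kb (EIF3D) and 26.7 kb (EIF3B) in RefSeq on GRCh38.p14, each below the median of 27.9 kb over 14205 genes. Across these genes the Spearman correlation of span with the log2 difference was 0.131 for TIAR against G3BP1 RIP and 0.400 for TIAR RIP against input, both in stressed cells. It is a correlation across genes, which are not independent replicates, and the part of gene span in the differences of the 5 mRNAs was not tested.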

How the data were processed

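RNA from 3 biological replicates in each of 6 groups was hybridised to 18 exon arrays. The deposited values are log2 signals, 1 per transcript cluster (a row), made with RMA in Affymetrix Expression Console, per the submitters' processing notes. The sources used here give neither versions nor whether the arrays were normalized as 1 set. Array medians from 7.73 to 8.07, and the number of arrays limits the precision. Rows were named from the platform table: 14432 of 22011 (65.6%) had 1 symbol, 2408 several and 5171 none, and the row with the highest mean stood for each of 14232 genes. A RefSeq table on GRCh38.p14 matched 14404 rows and changed 0 symbols.

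Means of the 6 groups were fitted to all 18 arrays with lmFit and eBayes in limma 3.58.1 (R 4.3.3; 12 residual and 2.61 prior degrees of freedom). Two-sided p-values were adjusted by Benjamini-Hochberg over all 22011 rows within each of 12 comparisons, without a filter, and an adjusted p under 0.05 was called. Fitted differences are given with SE. The fit was tested on simulated data for TIAR against G3BP1 RIP in stressed cells over 22011 rows, where 80% of log2 shifts of 1 and 99% of shifts of 2 were recovered. Alternatives were 3 scalings, 2 filters, array weights, a trended robust prior, a replicate block, only the compared groups, and leaving out arrays. The members, gene lists and tests were chosen with earlier results of these data known. Named were all eIF3 subunits with a row, up to 4 genes a list by smallest p in TIAR against G3BP1 RIP in stressed cells, and the genes most alike by correlation. Figures were drawn with matplotlib 3.10.9 in Python 3.11.15.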

Additional observations from a re-analysis of the deposited data

Results flagged for a closer look

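These 5 values, each tested as interactions in the limma fit, showed an arsenite change that differed between kinds of RNA. The TIAR RIP change exceeded the G3BP1 RIP change by 0.84 log2 units for EIF3B, by 0.77 for EIF3D and by 0.46 for EIF3I. For EIF3B the TIAR RIP change also exceeded the input change by 0.70. For EIF3E the G3BP1 RIP change differed from the input change by -0.99. Adjusted p-values were 0.000896, 0.00127, 0.0445, 0.0368 and 0.036 in this order. The EIF3B and EIF3D differences between the RIPs were called in all 22 alternatives run for each (adjusted p up to 0.00353 and 0.00859). That of EIF3I was called in 10 of 22 (0.40 to 0.58, adjusted p up to 0.116), the EIF3B change beyond input in 12 of 22 (0.53 to 0.76, adjusted p up to 0.11) and the EIF3E change beyond input in 13 of 22 (adjusted p up to 0.0903).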

How the results depend on the processing

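All 5 eIF3 mRNAs stayed lower in TIAR RIP than in G3BP1 RIP and than in input, in stressed and unstressed cells, under each of the 16 alternatives run for these comparisons, with log2 differences from G3BP1 RIP in stressed cells of -2.87 to -1.30. Of 2100 values of single subunits under alternatives, 1898 stayed on their side of the threshold, 91 lost and 111 gained a call, and 0 called values reversed; 96 uncalled values, between -0.18 and 0.26, had the other sign. The number of the 5 mRNAs called changed as follows, and the cause was not tested. For the TIAR RIP arsenite change beyond input it was 1, but 0 with a replicate block and 4 with array weights or without both arrays that stood apart. For the arsenite change in G3BP1 RIP it was 1, but 0 with only the compared groups, 2 with array weights, with either filter (without the lowest 25% or 50% of rows by mean) or without both arrays, and 3 with median centring, quantile or cyclic loess normalization. These counts mix directions, as calls of EIF3B and EIF3D were lower and those of EIF3K, with either filter or the 3 scalings, higher. For the arsenite change in input it was 1, but 0 with only the compared groups and 2 with median centring or cyclic loess. In these 2 calls EIF3B was lower and EIF3D higher. For the G3BP1 RIP change beyond input it was 0, but 1 with the 50% filter and 2 with array weights, any of the 3 scalings or without both arrays. For G3BP1 RIP against input in stressed cells it was 2, but 4 with quantile normalization and 3 with only the compared groups, array weights, the 50% filter, median centring or without both arrays, and in unstressed cells it was 3, but 2 with only the compared groups and 4 with cyclic loess. For TIAR against G3BP1 change it was 3, but 2 with the block or only the compared groups and 4 with array weights or without both arrays. For arsenite in TIAR RIP it was 4, but 5 with array weights or without both arrays. Leaving out 1 array gave 5 to 5 for TIAR RIP against G3BP1 RIP and against input, 2 to 2 (stressed) and 2 to 3 (unstressed) for G3BP1 RIP against input, 3 to 4 for arsenite in TIAR RIP, 1 to 2 in G3BP1 RIP and 0 to 1 in input, 2 to 4 for TIAR against G3BP1 change, and 0 to 1 for each RIP change beyond input.

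Same-numbered replicates did not regularly deviate together: their correlation exceeded 0.1 in 7, 4 and 3 of 15 pairs of groups (range -0.41 to 0.42). With 3 arrays in a group this cannot decide whether the numbers pair samples, and the labels state no pairing. With the replicate block EIF3I lost its TIAR against G3BP1 change (adjusted p = 0.06) and EIF3B its change beyond input (adjusted p = 0.0705).

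Over all rows, median centring moved the median log2 difference by 0.23 and 0.19 for TIAR against G3BP1 RIP (stressed, unstressed), 0.17 for TIAR RIP against input in unstressed cells, -0.17 for G3BP1 RIP against input in stressed cells, -0.11 for the TIAR RIP change beyond input and -0.15 for the G3BP1 RIP change beyond input; quantile normalization moved TIAR RIP against input in unstressed cells by 0.12. The share of calls that were higher moved from 41.3% to 56.9% and 55.2% (centring, quantile) for TIAR RIP against input in unstressed cells, from 65.9% to 48.9% and 52.0% (centring, loess) for G3BP1 RIP against input in stressed cells, from 71.8% to 58.3%, 55.5% and 58.7% (centring, quantile, loess) for arsenite in G3BP1 RIP, from 18.3% to 34.3%, 39.4% and 39.4% in input, from 37.1% to 49.7% (loess) for TIAR against G3BP1 change, from 92.4% to 79.1% and 73.6% (centring, quantile) for the TIAR RIP change beyond input, and from 84.3% to 65.9%, 61.2% and 63.1% for the G3BP1 RIP change beyond input. Rows called moved by over 1.5 times for the TIAR RIP change beyond input (144, but 55 with the block, 1472 with array weights, 219 and 312 with the filters, 239 with quantile, 325 with loess and 732 without both arrays), arsenite in TIAR RIP (2609, but 5485 with weights, 3957 with quantile and 5057 without both), in G3BP1 RIP (3189, but 866 with the compared groups, 6489 and 5464) and in input (3026, but 1487 and 5328), TIAR against G3BP1 change (2994, but 6349 and 5447) and the G3BP1 RIP change beyond input (3721, but 5960).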
